A study of Mus musculus with 446 samples.

Results

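The cytosolic ribosomal protein genes described here are the protein-coding genes of the mouse whose symbols name a large-subunit protein (Rpl), a stalk protein (Rplp) or a small-subunit protein (Rps), with pseudogene names and the Rps6k kinases left out. They numbered 85 of the 21620 protein-coding genes measured, 52 with large-subunit or stalk names and 33 with small-subunit names. All 85 stood in the liver and muscle tables, and 14 stood in the smaller adipose table used here. Most are the standard proteins of the ribosome, a few are variants or retrogenes of one (Rpl3l, Rpl7l1, Rpl10l, Rpl22l1, Rpl36al, Rpl39l, Rps27l and Rps27rt), and Rps19bp1, which encodes a binding protein of Rps19, entered through its symbol. Fau and Rpsa also encode ribosomal proteins, but their symbols lie outside the rule and they stand in the list of other TOP genes.

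The mice were males of the Diversity Outbred stock, in which every animal carries its own mixture of the genomes of several founder strains, so the mice of a group are not genetically alike. They were housed singly from 6 weeks of age and ate either a control diet with 10% of its energy as fat throughout or a high-fat diet with 60% of its energy as fat for 14 weeks. Total RNA of liver, muscle and abdominal adipose tissue from the same animals was sequenced in 446 libraries, and levels were given as TPM, which count transcripts per length within each library. With mouse 80 left out, 74 control and 74 high-fat mice had a liver library, 74 and 74 a muscle library, and 73 and 74 an adipose library.

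A ribosome is made of a small subunit, which reads the messenger RNA, and a large subunit, which joins the amino acids, and each subunit holds a set of different proteins on a core of ribosomal RNA. Cells make these proteins in nearly equal numbers, and their messenger RNAs are among the most abundant of any cell. Most of these messengers begin with a C followed by a run of pyrimidines, the 5′ terminal oligopyrimidine (TOP) tract, through which the growth-regulating kinase mTORC1 controls their translation. In mammals the genes have been copied into the genome many times by reverse transcription, and most of the copies are pseudogenes.

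That run of C and T is seen at the annotated start of some members whose level differed between the diets in liver. Those printed were picked for having the run, smallest liver adjusted p (limma) first, so they do not show how often it occurs. Of the 65 members with a window, 15 had such a run. In the sequences here, from RefSeq on GRCm38.p6, 100 bases before the start base and 15 bases from it on are written on the gene's strand. Capitals mark the run of C and T that holds the start base and any match to the motifs searched; the windows are chr9:120571417-120571531 (plus strand) for Rpl14, chr17:27635230-27635344 (minus strand) for Rps10, chr3:90213634-90213748 (minus strand) for Rps27 and chr7:4792865-4792979 (plus strand) for Rpl28.
Rpl14: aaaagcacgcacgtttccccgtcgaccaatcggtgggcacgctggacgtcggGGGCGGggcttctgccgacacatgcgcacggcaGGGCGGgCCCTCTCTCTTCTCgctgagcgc
Rps10: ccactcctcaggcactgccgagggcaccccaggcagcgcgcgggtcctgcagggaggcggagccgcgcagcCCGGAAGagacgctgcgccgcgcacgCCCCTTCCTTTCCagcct
Rps27: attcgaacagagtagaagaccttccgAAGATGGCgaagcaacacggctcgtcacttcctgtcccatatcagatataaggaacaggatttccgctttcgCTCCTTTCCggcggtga
Rpl28: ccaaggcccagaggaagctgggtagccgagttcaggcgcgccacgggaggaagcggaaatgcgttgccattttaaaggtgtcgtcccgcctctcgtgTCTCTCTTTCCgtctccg
The run is 14 bases long in Rpl14, 13 in Rps10, 9 in Rps27 and 11 in Rpl28. Lengths count C and T on both sides of the start base, here and in the search below. In each of these members the part from the start base on is shorter. Of the 85 members, 65 had a window in the RefSeq table, 77 windows in all, and the searches covered 250 bases before the start and 50 from it on. A run of at least 5 bases with C at the start base was found in 19.5% of the members' windows and 5.56% of all 32851 windows. The CCGGAAG motif, bound by ETS factors, stood on either strand in 33.8% of the members' windows and 8.86% of all windows, and GGGCGG on either strand in 59.7% and 35.7%. AAGATGGC, bound by YY1, was found on either strand in 10.4% of the members' windows and 2.75% of all windows, and TATAAA on the gene's strand in 7.79% and 8.32%. A match describes these letters only.

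A second kind of sequence bears on every value reported for these genes, because many members have copies that share nearly all their coding letters. A copy was a gene outside the members whose transcripts held at least 10% of the 50-base stretches of a member's protein-coding transcripts. By this measure 70 members had 310 copies, none of them shared by more than 1 member. For 62 members a copy aligned over the whole coding sequence, and 17 of these had a copy with no difference at all. The pairs shown here are members whose measured level divided with such a copy, with 61 bases of the coding strand from GENCODE M21 transcripts on GRCm38 and the base that differs in capitals.
Rpl19: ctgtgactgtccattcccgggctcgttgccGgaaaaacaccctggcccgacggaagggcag
Rpl19-ps11: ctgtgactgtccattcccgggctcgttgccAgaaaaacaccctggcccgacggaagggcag
Rpl23: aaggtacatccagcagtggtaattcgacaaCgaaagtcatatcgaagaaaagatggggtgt
Gm9794: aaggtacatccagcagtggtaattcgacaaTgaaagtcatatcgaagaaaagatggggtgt
Rpl37: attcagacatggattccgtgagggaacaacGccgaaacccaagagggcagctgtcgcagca
Rpl37rt: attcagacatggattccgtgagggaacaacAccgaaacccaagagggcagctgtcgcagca
Rps12: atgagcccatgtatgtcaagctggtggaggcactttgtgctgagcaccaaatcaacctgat
Positions are counted from the A of the start codon, with the member's base first and the copy's base last. Rpl19 (chr11:98026710-98030492, plus strand) differed from its processed pseudogene Rpl19-ps11 (chr8:19492936-19493526, plus strand) by G191A alone over 591 coding bases. Rpl23 (chr11:97777527-97782437, minus strand) differed from Gm9794 (chr6:66875321-66875743, minus strand) by C253T over 423 bases. Rpl37 (chr15:5116645-5119140, plus strand) differed from the retrogene Rpl37rt (chr5:115102923-115110268, minus strand) by G249A over 294 bases. Rps12 (chr10:23785183-23787275, minus strand) and its copy Rps12-ps3 (chr19:59322290-59322783, plus strand), which is annotated as protein-coding, had the same 399 bases, so only the member's stretch is printed.

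Before the comparisons, some facts about the libraries are needed. In mouse 80 the markers went against the labels: its library labelled liver summed to 75726 scaled TPM over 6 skeletal muscle markers and 245 over 6 hepatocyte markers, and its library labelled muscle to 414 and 81082. In the other livers the hepatocyte markers summed to at least 27133, with the highest skeletal muscle sum at 4878, and in the other muscles the skeletal muscle markers summed to at least 32487, with the highest hepatocyte sum at 6377. The TPM were rescaled within each tissue by a trimmed mean over nuclear protein-coding genes ("scaled TPM"), and 14 control and 12 high-fat livers, 2 and 9 muscles, and 11 and 7 adipose samples had a scale factor under 0.333 of their tissue's median. Those libraries held the lowest value of their group for 66 and 64 of 82 members in liver, 3 and 48 of 83 in muscle, and 10 and 5 of 13 in adipose tissue. TPM keep no read depth, so the counting error behind each value is unknown.

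The members were among the most abundant messengers of each tissue. In control mice 68 of 85 had a median of at least 100 scaled TPM in liver and 71 in muscle, and the median member stood at 202 scaled TPM in liver and 294 in muscle. Liver was led by Rpl41 at 589, Rps2 at 492, Rplp1 at 489 and Rps27 at 446 scaled TPM, and muscle by Rplp1 at 957, Rps27 at 754, Rps2 at 717 and Rps24 at 656. Rplp1, a protein of the stalk that calls elongation factors to the ribosome, was also the most abundant of the 14 members in adipose tissue, at 1318 scaled TPM. At the other end, 4 members in liver and 3 in muscle had a median under 1 scaled TPM: Rpl3l, Rpl10l, Rpl39l and Rps27rt in liver, and the last 3 of these in muscle. Rpl10l and Rpl39l are variants best known from the testis.

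**Figure D1:**
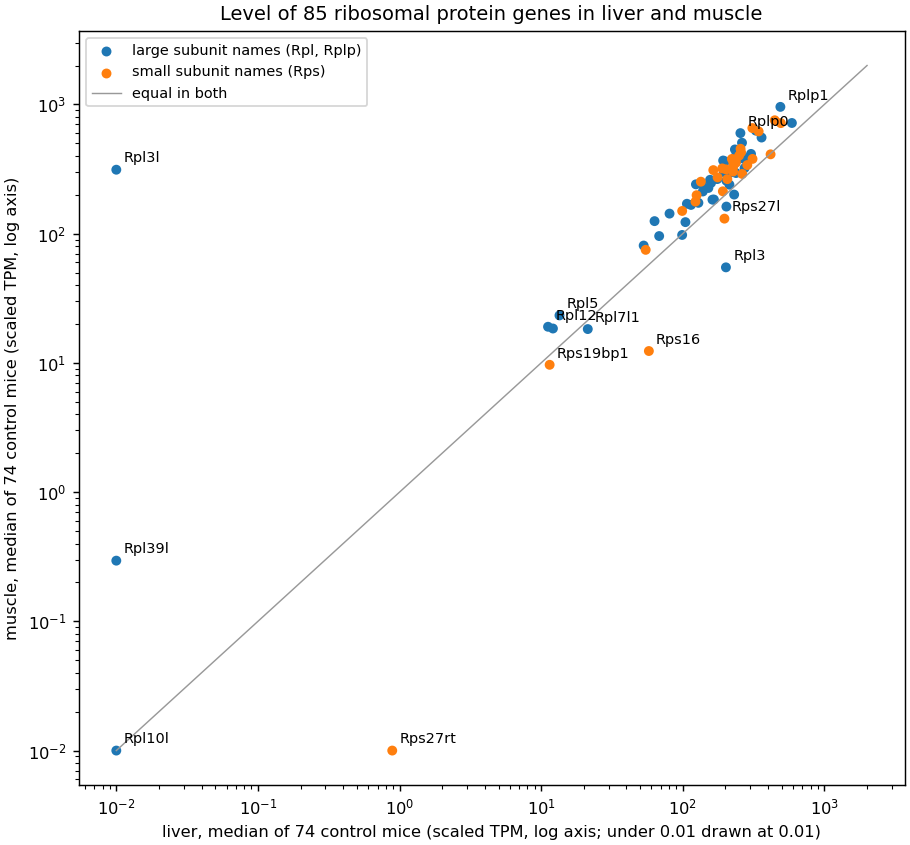
Median level of each of the 85 genes in 74 control livers (x axis) and 74 control muscles (y axis), both in scaled TPM on log axes, with large-subunit and stalk genes in blue and small-subunit genes in orange. The tissues were scaled separately, so distance from the line is no test; Rpl3l is at 312 in muscle and near 0 in liver, and Rpl3 at 54.8 in muscle and 202 in liver.

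Because the tables of the tissues were scaled apart, the make-up of the set was compared as each member's share of the summed members of its own library. Rpl3, which reaches the catalytic centre of the large subunit, held a median 1.19% of the summed members in control livers and 0.228% in control muscles, and its share was lower in the muscle of 74 of 74 mice. Its variant Rpl3l, made in heart and skeletal muscle, went the other way, with a median share of 0 in liver and 1.22% in muscle, higher in muscle in 74 of 74 mice. Rps27l, Rpl7l1 and Rpl36al also took smaller shares in muscle, at 0.533%, 0.0721% and 0.774% against 1.17%, 0.127% and 1.35% in liver, lower in 73, 74 and 73 of 74 mice. Rplp0, the base of the stalk, held 1.54% in liver and 2.32% in muscle (higher in 74 of 74 mice) and Rps24 1.84% and 2.64% (73 of 74). These shares are given as descriptions with no test, and they include the way reads were divided between a gene and its copies.

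Within muscle, Rpl3 and Rpl3l varied against each other from mouse to mouse. Rpl3l had a lowest, median and highest level of 118.4, 312 and 415 scaled TPM in control mice and 118.7, 287 and 388 in high-fat mice, and Rpl3 of 33.3, 54.8 and 212 in control mice and 25.9, 56.2 and 243 in high-fat mice. Rpl3l exceeded Rpl3 in 71 of 74 control and 73 of 74 high-fat mice. Over the 74 control mice Pearson's r was -0.84 and Spearman's rho -0.68, and r was -0.79 without the 2 mice farthest from the median Rpl3. Over the 74 high-fat mice r was -0.56 and rho -0.41, and r was -0.40 without the 2 farthest. Both r had a two-sided permutation p of 1e-05, the smallest that the permutations can give, also after adjustment over the 2 diets. Without the libraries of low scale factor r was -0.84 and -0.72.

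**Figure D2:**
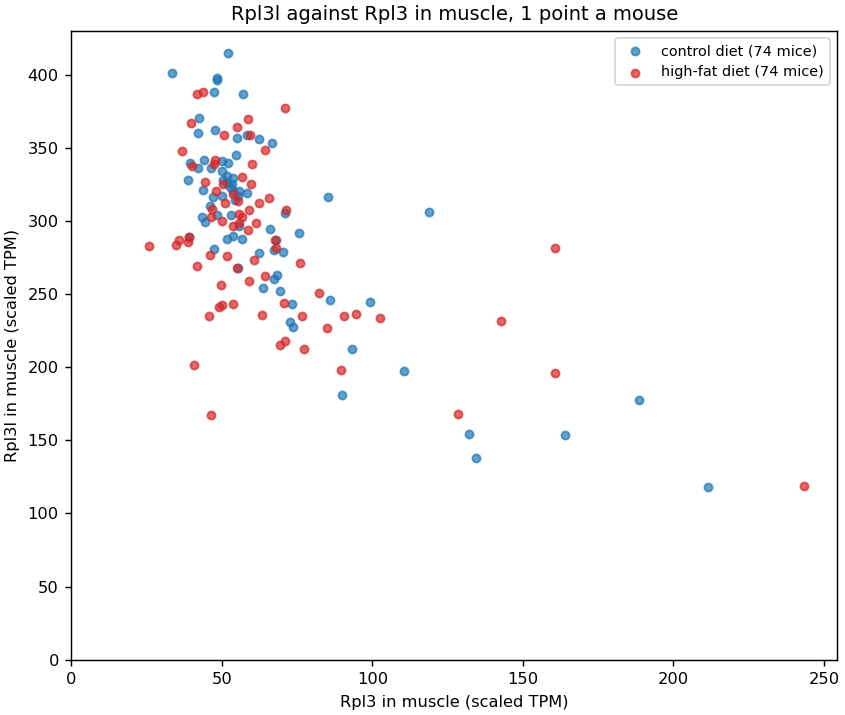
Rpl3l (y axis) against Rpl3 (x axis) in muscle, in scaled TPM, 1 point a mouse, for 74 control and 74 high-fat mice. Points of both diets lie on the same falling course, from about the median of 54.8 for Rpl3 in control mice to its highest values of 212 and 243.

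The balance of the pair did not differ detectably between the diets. The log2 ratio of Rpl3l to Rpl3 (levels plus 1) had a lowest, median and highest value of -0.83, 2.51 and 3.55 in control muscles and -1.03, 2.38 and 3.40 in high-fat muscles, and the groups overlapped almost wholly. The means were 2.24 (SD 0.84, n = 74) and 2.20 (SD 0.75, n = 74), a difference of -0.03 with a standard error of 0.13 and a two-sided permutation p of 0.798.

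The diet comparison asks how levels differed in mice after the high-fat diet. In liver the members lay lower as a set: 38 of 82 tested were lower on the high-fat diet and 0 higher by limma at an adjusted p under 0.05, where 5.37% of all 12376 genes tested were lower and 4.57% higher. Their median difference was -0.17 on the log2(scaled TPM + 1) scale, against -0.01 over all genes, and 76 of 82 lay below 0, within a range of -0.37 to 0.22. Between mice, the SD of the log2 level had a median of 0.32 over 76 abundant members in control livers and 0.35 over 75 in high-fat livers. The groups overlapped for each gene described. On the TPM as deposited, before rescaling, the members' median difference was -0.25 and that of all genes -0.05, and 0 members passed by limma (0 also at an unadjusted p under 0.05). In bulk tissue, fewer cells of a type and less RNA per cell cannot be told apart.

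Both subunits took part in the liver difference. The small subunit had 19 of 33 tested members lower with a median of -0.18, and the large subunit 19 of 49 with a median of -0.16. In the small subunit, Rps10, which lies near the entry of the messenger and whose start is printed above, had a lowest, median and highest level of 144.4, 206 and 279 scaled TPM in control livers and 77.1, 180.5 and 237 in high-fat livers. It was lower by a log2 difference of -0.18 (SE 0.039, adjusted p = 0.00034 by limma), with 57 of 74 high-fat mice at or under the control median. Rps27, whose start is also printed, had 275, 446 and 619 against 230, 390 and 544 scaled TPM, a log2 difference of -0.18 (SE 0.038, limma adjusted p = 0.00037), with 60 of 74 high-fat mice at or under that median. Rps6, the substrate of the S6 kinases, was lower by -0.16 (limma adjusted p = 0.00231), from a median of 311 to 272 scaled TPM.

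In the large subunit, Rpl3 ran from 97.7 over a median of 202 to 278 scaled TPM in control livers and from 60.0 over 170 to 222 in high-fat livers. Its log2 difference was -0.23 (SE 0.045, limma adjusted p = 5.29e-05), with 63 of 74 high-fat mice at or under the control median. Rpl14 showed 99.3, 156 and 211 scaled TPM against 57.4, 137.7 and 173, a log2 difference of -0.18 (SE 0.036, limma adjusted p = 5.72e-05). Rpl32 and Rpl26, the latter near the mouth of the tunnel by which the new protein leaves, had medians of 303 and 360 scaled TPM in control livers and 268 and 315 in high-fat livers, with limma adjusted p of 7.88e-05 and 9.61e-05. Both had at least 64 of 74 high-fat mice at or under their control median. Of the stalk proteins, Rplp0 and Rplp1 were lower, by -0.15 and -0.13 (limma adjusted p = 0.00674 and 0.0431), and Rplp2, at -0.13, did not pass (0.082). Rplp1 no longer passed with no filter on low values (limma adjusted p = 0.105), with mouse 80 kept (0.0813) or without the 11 livers with a second number in the label (0.0959).

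The variant genes mostly did not pass in liver. Rpl7l1 had a log2 difference of 0.05, Rps27l of 0.00 and Rps27rt of -0.01, while Rps27, from which Rps27l takes its name, passed as given above. Rpl22l1 and Rpl36al, at -0.17 and -0.09, Rpl36a and Rpl39, at -0.09 and -0.10, and Rps19bp1, at 0.03, did not pass either, whereas Rpl22, at -0.15, did (limma adjusted p = 0.0326, or 0.0816 with no filter on low values). Without the libraries of low scale factor Rpl22l1 passed at -0.26 (limma adjusted p = 0.00275), and the others named here that did not pass still did not. Rpl3l, Rpl10l and Rpl39l were too low in liver to be tested.

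**Figure D3:**
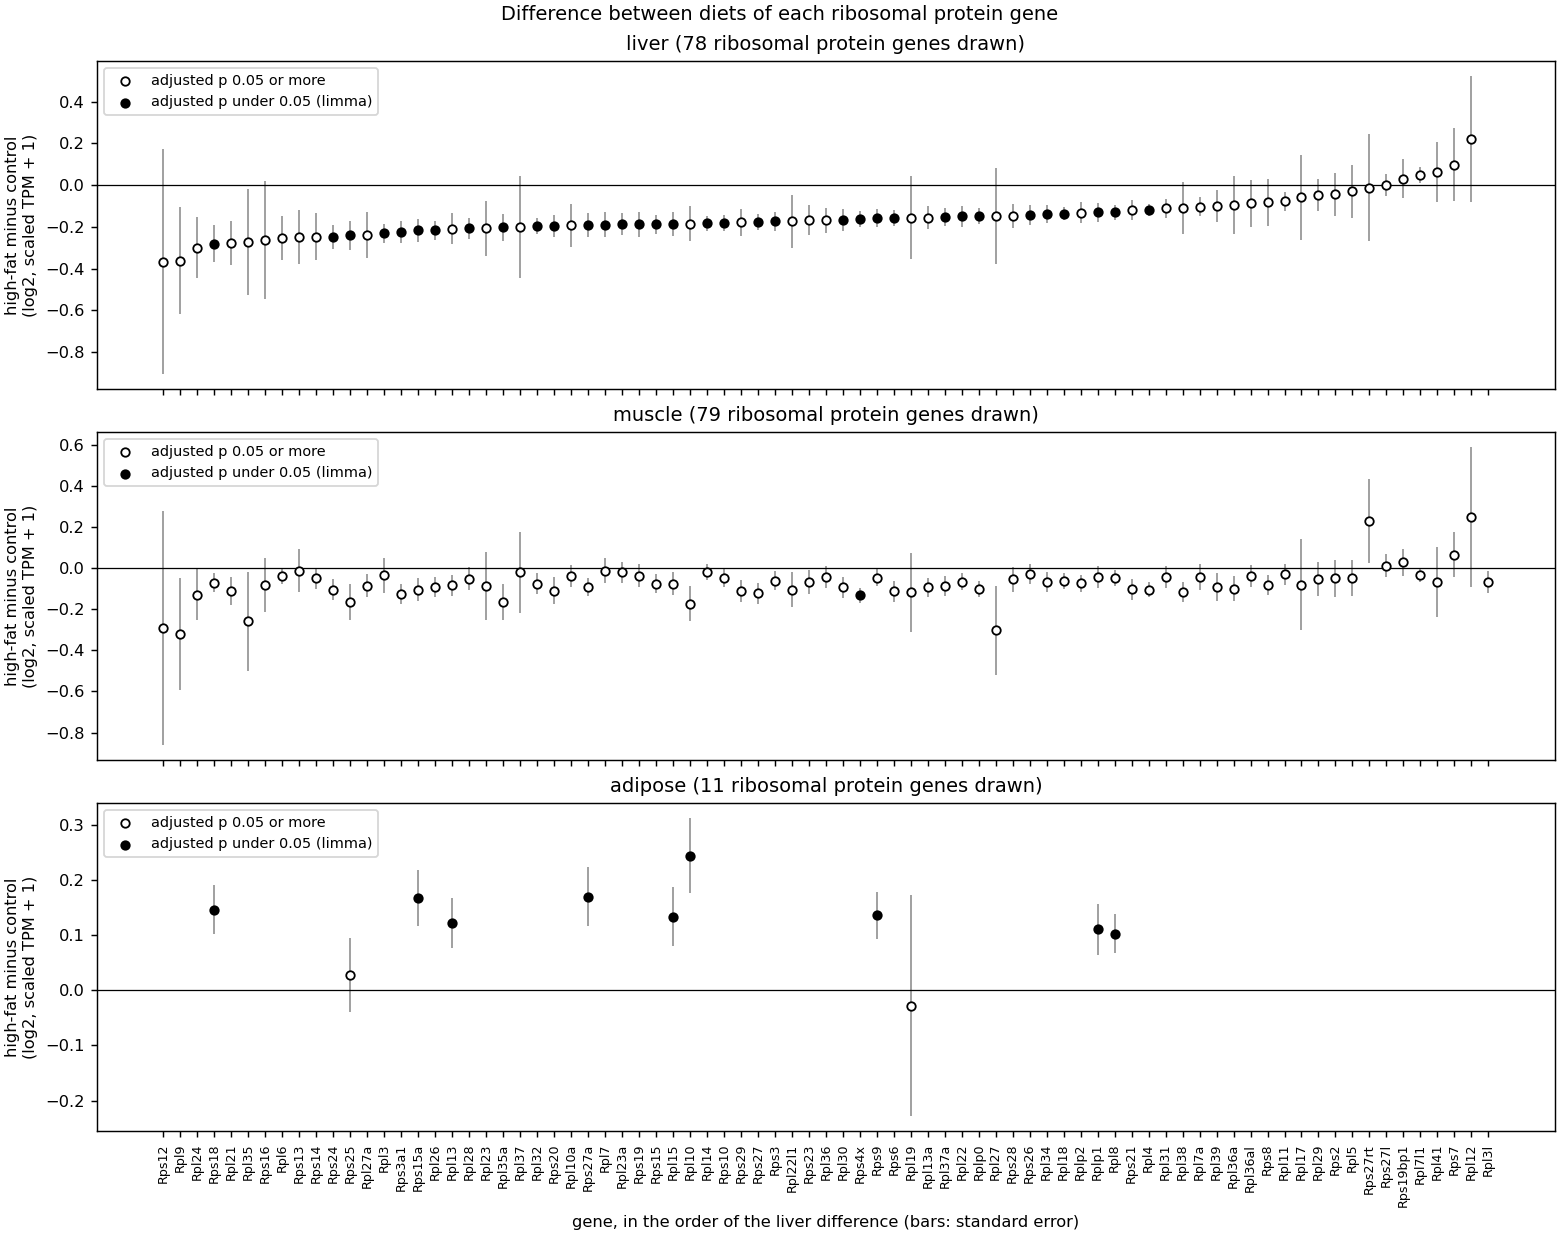
Difference between the diets of each gene (y axis, log2 of scaled TPM + 1, high-fat minus control, bars of 1 standard error) in liver, muscle and adipose tissue, with genes in the order of the liver difference along the x axis and filled points for an adjusted p under 0.05. Of the genes drawn, 34 of 78 in liver and 1 of 79 in muscle have filled points below 0, and 9 of 11 in adipose tissue above 0; none passed on the TPM as deposited.

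In muscle the differences were smaller. Of 83 tested, 1 was lower and 0 higher, against 0.577% and 1.03% of all 13517 genes; the median was -0.07 for the members and -0.0048 for all genes, and 78 of the 83 lay below 0. The one that passed was Rps4x, an X-linked protein of the small subunit, at 249, 351 and 592 scaled TPM in control and 205, 318 and 554 in high-fat muscles (lowest, median and highest). Its log2 difference was -0.13 (SE 0.036, limma adjusted p = 0.0332), and it was also lower in liver (-0.16, limma adjusted p = 0.00076). Without the libraries of low scale factor 0 members passed in muscle (Rps4x at -0.10, limma adjusted p = 0.206), and 0 with no filter on low values (0.0764). At an unadjusted p under 0.05, 15 members were lower in muscle. On the TPM as deposited 47 were lower at an unadjusted p and 0 after adjustment by limma, with medians of -0.29 for the members and -0.15 for all genes. The share of all genes lower at an unadjusted p was not computed for either count.

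In adipose tissue the direction was the opposite. Of the 13 members tested, 11 were higher on the high-fat diet and 0 lower, where 22.7% of all 2226 genes tested were higher and 22.2% lower, with a median of 0.13 for the members and -0.01 for all genes. Rpl10, a protein added late as the large subunit matures, ran from 92.9 over a median of 313 to 668 scaled TPM in control mice and from 185 over 367 to 710 in high-fat mice. It was higher by a log2 difference of 0.24 (SE 0.068, limma adjusted p = 0.00189), and 54 of 74 high-fat mice exceeded the control median. Rps18 went from a median of 679 to 737 scaled TPM (0.15, limma adjusted p = 0.00413), with 56 of 74 high-fat mice above the control median, and Rps9, which lies where the messenger enters the small subunit, from 577 to 626 (0.14, 0.00584). Rps15a and Rps27a, the latter made as a fusion with ubiquitin, were each higher by 0.17, and Rpl8 by 0.10 (limma adjusted p = 0.0123). Rpl15, Rplp1 and Rpl13 also rose, of which Rpl15 and Rplp1 did not pass without the libraries of low scale factor (limma adjusted p = 0.0822 and 0.0864), and Rps25 at 0.03 and Rpl19 at -0.03 did not pass. On the TPM as deposited, 9 members were higher at an unadjusted p and 0 after adjustment by limma, and the medians were 0.37 for the members and 0.20 for all genes. The share of all genes higher at an unadjusted p was not computed.

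Cell type markers moved in adipose tissue beside this rise. The 2 adipocyte markers in the table, Retn and Slc2a4, were both lower (median log2 difference -0.99), and their summed level ran from 397 over a median of 1551 to 3765 scaled TPM in control mice and from 113.1 over 684 to 2726 in high-fat mice. The 2 macrophage markers, Cd68 and Adgre1, were both higher (1.36), with sums of 34.8, 70.4 and 589 against 52.4, 221 and 1008 scaled TPM. Both proliferation markers (0.76) and both fibroblast markers (0.38) were higher as well. In liver 4 of 6 hepatocyte markers were lower and 1 higher, with sums of 32157, 47574 and 80595 scaled TPM in control and 27133, 44334 and 66863 in high-fat mice, and 1 of 7 macrophage markers was lower. The part of these markers in the members' differences was not tested.

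The difference between tissues was tested itself, as the liver or muscle effect minus that of another tissue. The effect in liver was lower than that in adipose tissue for 12 of the 13 members tested, against 14.1% of 1783 genes, and the effect in muscle for 10 of 13, against 11.8% of 1929 genes. Rps15a had a liver effect of -0.22 and an adipose effect of 0.17, a difference of -0.38 (SE 0.074, limma adjusted p = 8.3e-06). Rps9 differed by -0.29 (limma adjusted p = 3.33e-05), and Rpl10 differed between muscle and adipose tissue by -0.42 (0.00202). Between liver and muscle 0 of 82 members passed by limma, with 8 at an unadjusted p under 0.05, and of 10966 genes 1.93% had a lower and 1.33% a higher effect in liver. Here the median difference was -0.08 for the members and 0.00082 for all genes after scaling, and 0.05 and 0.12 on the TPM as deposited, so the members' sign turned while they stayed below the median of all genes. Rpl14 came nearest (-0.16, SE 0.052, limma adjusted p = 0.0501) and passed when the mouse was taken as a block (0.0322), where 2 members passed. With the libraries of low scale factor left out, 11 members passed between liver and muscle and 5 between muscle and adipose tissue; Rpl10 was not among the 5 (-0.22, limma adjusted p = 0.0698). On the TPM as deposited 0 members passed between liver and adipose tissue and 12 of 13 between muscle and adipose tissue, with all-gene medians of -0.26 and -0.38. These comparisons share tissues. The shares of all genes in these other settings, and at an unadjusted p, were not computed.

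Other genes of the translation machinery were described from lists, beside the 5.37% of all genes that were lower and the 4.57% that were higher in liver. Of 20 further genes with TOP messengers, the ribosomal genes Fau and Rpsa among them, 9 were lower in liver and 0 higher, with a median of -0.15, among them the elongation factor genes Eef1a1 (-0.22, limma adjusted p = 5.36e-08) and Eef2 (-0.17, 1.77e-05), Npm1 (-0.22, 4.12e-06) and Rack1, whose protein sits on the small subunit (-0.15, 0.000548). Ribosome biogenesis factors had 1 of 31 higher and 1 lower in liver (median 0.06), RNA polymerase I and its factors 1 of 12 higher, and regulators of ribosomal protein synthesis 1 of 15 higher. The proteins of the mitochondrial ribosome, a separate particle, had 3 of 78 higher and 0 lower in liver (median 0.01). In muscle none of the genes tested in these 5 lists passed by limma. In adipose tissue Rack1, the 1 TOP gene tested, was higher (0.20, limma adjusted p = 3.5e-05; 22.7% of all genes there were higher and 22.2% lower), as were 3 of 7 biogenesis factors, while 6 of 14 mitochondrial ribosomal proteins were lower and 1 higher (median -0.07), and 2 of 4 regulators were lower.

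The genes whose levels followed the mean of the members most closely over libraries differed between tissues. In liver they were Hint1 (r = 0.78 over 74 control and 74 high-fat libraries), Ufc1, Psmb1, Vdac3 and D8Ertd738e, where the median gene had 0.18. In muscle they were Eef1b2 (0.74 over 74 and 74 libraries), Rack1, Snrpd2, Pfdn5 and Gm15500, a copy of Rpl5, with a median gene at -0.01. In adipose tissue they were Rack1 (0.83 over 73 and 74 libraries), Pfdn5, Ssr4, Hint1 and Canx, with a median gene at 0.06. The libraries share depth and scaling with the members, so these r are descriptions.

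Many members did not vary smoothly over mice but fell into classes with their copies. Rps12 in control livers ranged from near 0 over a median of 125.2 to 398 scaled TPM, and its copies together from 57.5 over 253 to 464. Their sum ran only from 219 over 362 to 493, so the SD of the log2 level was 3.38 for Rps12 alone and 0.22 for the sum. For Rpl12 the SD in control livers was 1.94 alone and 0.25 for the sum, and for Rpl19 1.22 and 0.20. Of 69 members with copies and enough signal, the sum had the smaller SD in 63 in control livers, 56 in high-fat livers, 60 in control muscles and 62 in high-fat muscles. A sum tends to vary less than its parts on the log2 scale, and no sum with unrelated genes was made for comparison. The rank correlation between a member and its copies over mice was negative for 56, 49, 45 and 45 of the 69. Rpl5, which carries ribosomal RNA into the large subunit, held only a median 5.47% of its sum in control livers, at 13.5 scaled TPM.

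**Figure D4:**
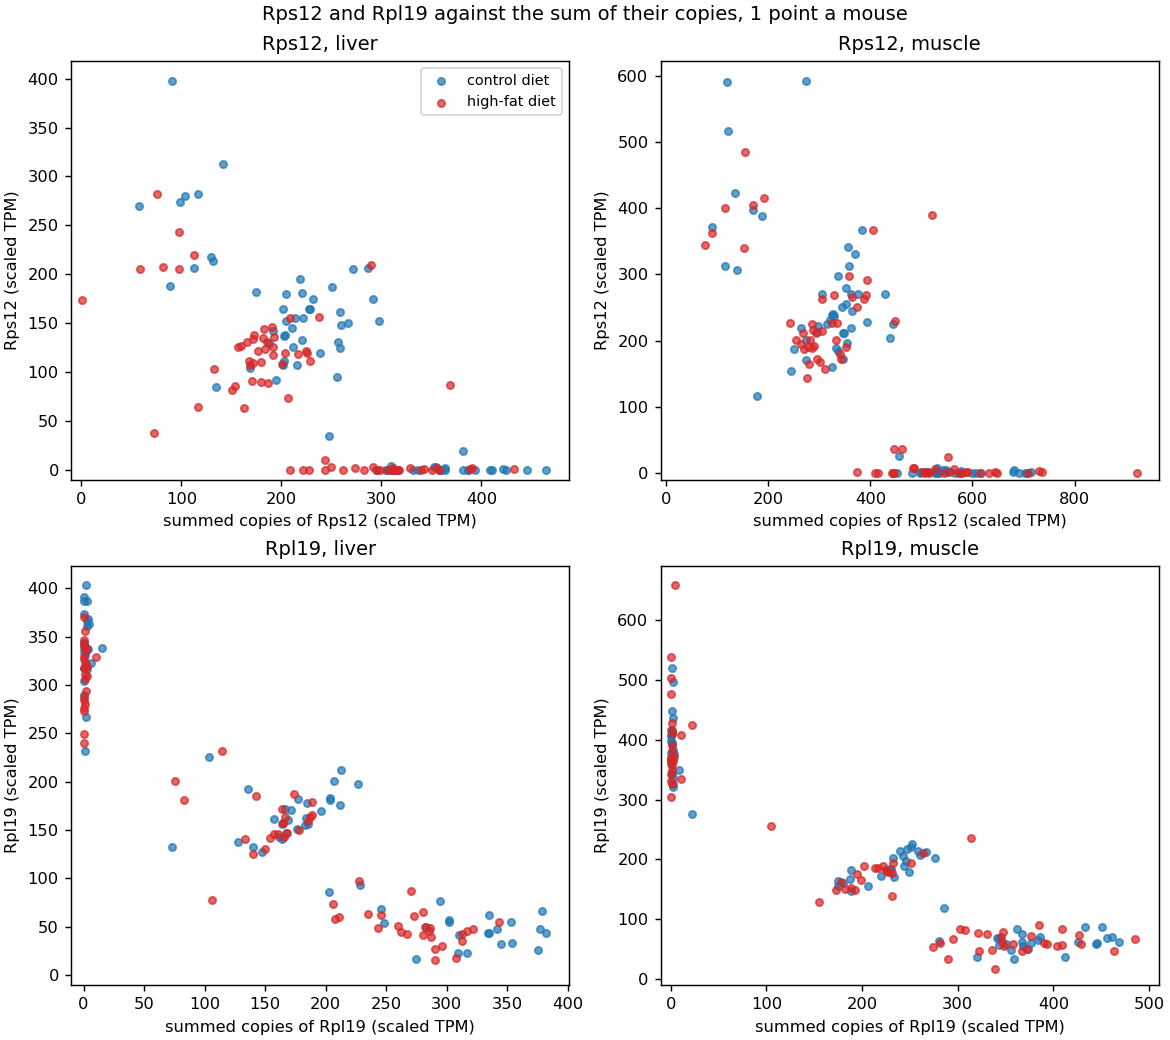
Level of Rps12 and Rpl19 (y axes) against the sum of their copies (x axes) in liver and muscle, in scaled TPM, 1 point a mouse, control in blue and high-fat in red. The points fall into separate groups of mice in each panel, and both diets are found in each group.

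A class was counted where the member's percentage of its sum left a gap of at least 10 points with at least 3 mice on either side. Such classes appeared for 23 members in each of the 4 combinations of liver or muscle and diet, for 15 members in all 4 and for 34 in at least 1. Rpl19 in control livers made up a median 12.3% of its sum in 23 mice, 48.7% in 27 and 99.4% in 24, and in control muscles 13.7% in 25, 44.5% in 25 and 99.6% in 24. Rps12 in control livers made up a median 0.00% in 28 mice, 40.3% in 36 and 69.8% in 10. Rpl23 had 29 mice in a low and 45 in a high class in each of the 4 groups, with medians of 17.2% and 64.6% in control livers and 13.3% and 67.3% in control muscles.

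For these genes most mice were in the same class in both tissues. Of 74 control mice, 73 were in the same class for Rps12 in liver and muscle, 72 for Rpl23 and 65 for Rpl19. Of 74 high-fat mice, 71 were in the same class for Rps12 and 70 for Rpl23. Rpl17, another of the members with the largest correlation between the tissues, had 73 control and 70 high-fat mice in the same class. Its largest class held 66 of 74 control mice in liver and in muscle, and 70 livers and 66 muscles of 74 high-fat mice. Much of its agreement is thus set by the size of that class. On the log2 scale Rpl9 was low in 4 of 74 control livers and in the muscles of the same 4 mice. What sets the classes was not tested.

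Adding a member to its copies, an analysis chosen after the data were seen, changed the count in liver. With members summed with their copies, 61 of 82 were lower and 0 higher on the high-fat diet, where 5.57% of all genes were lower, and 35 were lower both ways, 26 only when summed and 3 only alone, Rpl15 and Rps25 among them. Of the 70 tested members with a copy, 29 were lower alone and 52 when summed, and of the 12 without a copy 9 were lower. Rps12 had a difference of -0.37 alone that did not pass (limma adjusted p = 0.772), and its sum went from a median of 362 to 308 scaled TPM, a difference of -0.29 (SE 0.044, 1.1e-07). Rpl12 had 0.22 alone (limma adjusted p = 0.749) and -0.25 summed (2.29e-06), so its direction depended on the copies. Rps7 likewise had 0.10 alone (limma adjusted p = 0.815) and -0.23 summed (0.000472). Rpl5 and Rpl19 passed only when summed, at -0.19 (limma adjusted p = 8.42e-05) and -0.13 (0.00154). In muscle 1 of 83 passed either way.

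The last comparison asked whether a mouse high in one tissue was high in another. Within control mice 29 of 82 members had a positive correlation between liver and muscle at a permutation adjusted p under 0.05, against 6.09% of 10966 genes, and within high-fat mice 23, against 5.62%. None was negative. The diets shared 21 of these members, 72.4% of the control list and 91.3% of the high-fat list. The same overlap was not computed over all genes, so whether it is particular to the members is unknown. The median r over all members tested was 0.20 in control and 0.15 in high-fat mice, and over all genes 0.05 and 0.06. Of the members that passed, 18 in each diet had classes of mice in their share, as described above, so no pooled r is given for them. Within the classes of Rpl19 in control mice r between liver and muscle was 0.01, -0.06 and 0.55 over 21, 23 and 21 mice. Within those of Rps12 it was 0.12, 0.39 and 0.58 over 28, 36 and 9 mice. Other members differed widely, as in the larger class of control mice r was 0.78 for Rpl35 over 66 mice and 0.08 for Rps23 over 62. These r within classes are descriptions. Summed with copies, 14 members passed in control mice, against 5.91% of genes, and 9 in high-fat mice, against 5.42%; 12 and 7 of these also passed alone.

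**Figure D5:**
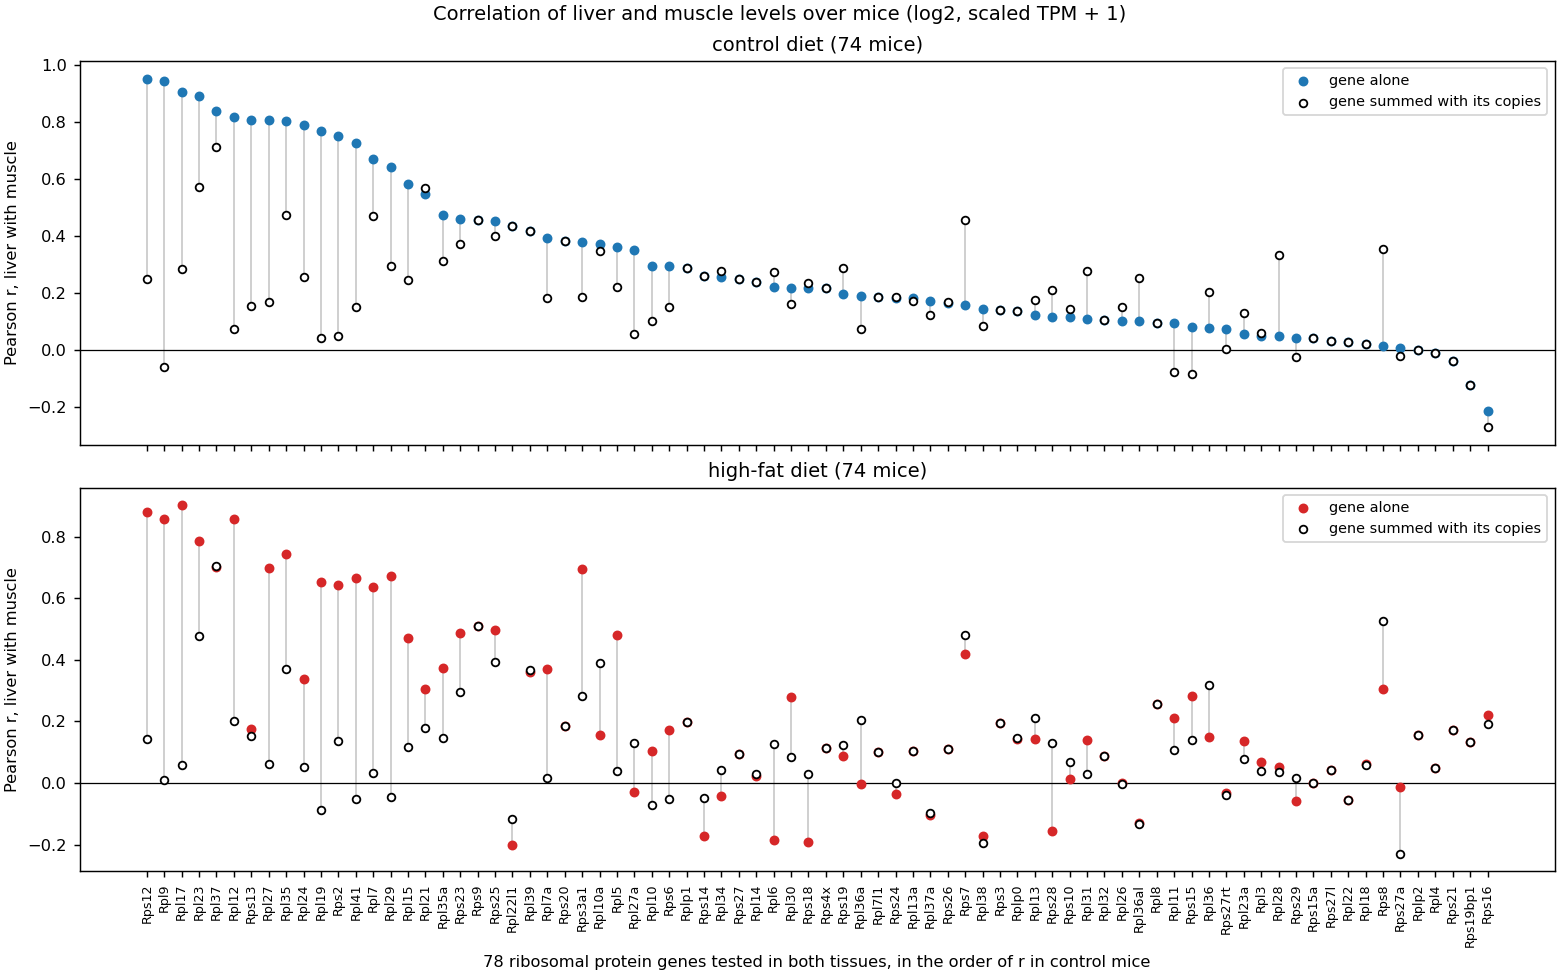
Pearson correlation between liver and muscle levels over mice (y axis) for 78 of the 82 genes tested in both tissues (x axis, in the order of r in control mice), for 74 control and 74 high-fat mice, with filled points for the gene alone and open points for the gene summed with its copies. Members with classes of mice lead the left side, and with copies summed 14 members passed the threshold in control and 9 in high-fat mice.

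Rps9, which has no copy by the measure used, passed in both diets without classes. Its liver level ran from 134.5 over a median of 226 to 299 scaled TPM in control mice and its muscle level from 235 over 326 to 435. Over 74 control mice r was 0.45 and rho 0.48 (permutation adjusted p = 0.00131), with r still 0.45 without the 2 mice farthest from the median. Over 74 high-fat mice r was 0.51 and rho 0.48 (permutation adjusted p = 0.000422), with r of 0.42 without the 2 farthest. Between liver and adipose tissue Rps9 had r = 0.39 and rho = 0.37 over 73 control mice (permutation adjusted p = 0.0343; r was -0.105 on the TPM as deposited), and between muscle and adipose tissue r = 0.38 and rho = 0.34 over 74 high-fat mice (0.0193, or 0.0589 on rho). It did not pass between liver and adipose tissue in high-fat mice (r = 0.34, permutation adjusted p = 0.117) or between muscle and adipose tissue in control mice (r = 0.14, 0.654).

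In the pairs with adipose tissue few members could be tested. Between liver and adipose tissue 4 of 13 passed in control mice, against 2.52% of 1783 genes, and 4 in high-fat mice, against 2.19%; 0 members were negative there, against 0.0561% of genes in high-fat mice. Between muscle and adipose tissue 3 of 13 passed in control mice, against 3.89% of 1929 genes, and 4 in high-fat mice, against 5.44%. Rpl15 was among those that passed in each of these 4 groups and in both diets between liver and muscle. Its r between liver and adipose tissue was 0.59 in control mice (rho 0.37, permutation adjusted p = 0.000938, r 0.51 without the 2 farthest mice) and 0.49 in high-fat mice (rho 0.38, 0.00396, r 0.50). Between muscle and adipose tissue Rpl15 did not pass on rho in either diet (permutation adjusted p = 0.0532 and 0.0910). Summed with its copies, Rpl15 did not pass between liver and muscle in either diet, with r of 0.24 in control mice and 0.12 in high-fat mice.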

How the data were processed

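The authors deposited 1 table of TPM for each tissue, with 47643 genes for liver and muscle; the adipose table used here holds 2728 genes. Stranded total RNA libraries were sequenced on a MiSeq, per the labels' protocols. FastQC, Trim Galore 0.4.4 and Bowtie 1.2.2 are named per the submitters' processing notes; the quantifier, the counting of reads shared by copies and the genome build were not given in the sources used here. Ensembl IDs were matched to GENCODE M21 symbols (99.1% of liver and muscle and 99.9% of adipose genes). TPM summed to a fixed total in each library and keep no depth, so no counting interval is given. Near-identical genes also gave very small values: 261108 of 3027336 values above 0 in liver lay under 1e-10.

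Groups came from the labels (tissue and diet), and mouse numbers link the tissues of an animal. Each library was divided by a scale factor, the trimmed mean of its log2 ratios to its tissue's median, taken out of the log, over protein-coding genes of the nucleus except Lars2 (0.3 of ratios and 0.05 of levels cut at each end). Genes at a scaled TPM of at least 1 in at least 0.7 of the smaller group's number of libraries were tested on log2(scaled TPM + 1) with limma 3.58.1 (R 4.3.3, trend and robust), Benjamini-Hochberg adjusted over all genes tested, threshold 0.05. Differences of effects between tissues used a diet by tissue term. Correlations within a diet used 100000 two-sided permutations (numpy 2.4.6), adjusted over all genes tested in both tissues. The Rpl3l ratio used the same number of permutations. Steps were tested on simulated data.

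Libraries with the same mouse number were taken as the same animal. Over liver and muscle, the deviations of the libraries of 1 mouse number had a median correlation of 0.26 in either diet, against -0.00 for different mice. The best match was the library of the same number for 57 of 74 control and 56 of 74 high-fat mice. With adipose tissue the median was 0.09 and 0.08 (liver) and 0.14 and 0.13 (muscle). There the same number matched best for 23 of 73 control and 17 of 74 high-fat mice with liver. With muscle it did so for 25 of 73 and 30 of 74. The match is thus not shown for each mouse. The text names, by rule, in each tissue the 8 members with the smallest adjusted p in each direction and the 4 most abundant, the 4 with the smallest adjusted p between tissues, the 5 with the largest correlation in each pair and diet, the stalk, paralog and variant genes with Rps6 and Rps19bp1, and the 5 genes most like the members' mean. Other members were named for their copies after their values were seen. A few genes that the rule would name are not reported here; they stay in every fit and count. Members, lists and rules were chosen with earlier results of these data known. The class counts, the sums with copies and the Rpl3 with Rpl3l correlation were chosen after the data were seen. Alternatives were TPM as deposited, scaling without the members or by median of ratios, pseudocounts of 0.1 and 5, no filter, no low-factor libraries, no livers with a second number in the label, mouse 80 kept, limma without trend and robust, a replicate block, and rank correlation.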

Additional observations from a re-analysis of the deposited data

Results flagged for a closer look

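For the 5 members described here, of the 12 and 10 that passed in the comparisons with adipose tissue, the effect of the diet differed between tissues by the test of the difference itself (diet by tissue term, limma). The liver effect was lower than the adipose effect by -0.38 for Rps15a, -0.29 for Rps9 and -0.23 for Rpl8 on the log2 scale. The muscle effect was lower than the adipose effect by -0.42 for Rpl10, -0.26 for Rps27a and -0.27 for Rps15a. Without the libraries of low scale factor the value of Rpl10 was -0.22 and did not pass (limma adjusted p = 0.0698). These 6 values were among those with the smallest adjusted p of each comparison. The 2 comparisons share the adipose libraries, and the adipose values of Rps15a enter both.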

How the results depend on the processing

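On the TPM as deposited no member passed for diet within a tissue: 0 lower in liver, 0 lower in muscle and 0 higher in adipose tissue. Between tissues 0 had a lower effect in liver than in adipose tissue and 12 in muscle than in adipose tissue. The positive correlations then numbered 10 (control) and 9 (high-fat) between liver and muscle, 0 and 0 between liver and adipose tissue, and 1 and 0 between muscle and adipose tissue. There r turned between liver and adipose tissue to -0.096 (Rpl15), -0.159 (Rps25) and -0.105 (Rps9) in control mice and to -0.0218 (Rplp1) and -0.0632 (Rps25) in high-fat mice, and between muscle and adipose tissue to -0.0304 (Rps25) in control mice. The 35 diet effects of members chosen by rule kept their direction and none passed. Summed with copies, a setting chosen after the data were seen, 61 members were lower in liver, 14 and 9 correlated between liver and muscle, and Rpl9 in control mice turned to r = -0.0612. With no filter on low values 0 members were lower in muscle. Without the libraries of low scale factor 0 were lower in muscle, 11 had a lower effect in liver than in muscle, and 5 in muscle than in adipose tissue. By rank correlation 2 passed between muscle and adipose tissue in high-fat mice. The replicate block, which pairs the tissues of a mouse, gave 2 members between liver and muscle in place of 0, and moved no other count by over 1.5 times. Other settings left between 27 and 56 members lower in liver. The cause of these shifts was not tested. Apart from the sums with copies, the share of all genes that passed was not computed for these settings. TPM hide read depth, so the precision of low members such as Rpl12 or Rps12 in single mice is unknown.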
